A study of Mus musculus with 2 samples.

Results

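The genes described here are the nuclear genes of the mitochondrial respiratory chain and ATP synthase, taken by symbol: every gene with at least 1 protein-coding transcript whose symbol starts with Nduf, Uqcr or Atp5, or with Cox followed by a digit. The rule gave 99 genes of 21901 with a protein-coding transcript. They carry 98 symbols, because Atp5o has a second gene entry, which had no count in either library. By role the 98 symbols comprise 71 subunits found in most tissues, 8 tissue-restricted subunit forms, 17 assembly factors of complexes I and IV, the supercomplex factor Cox7a2l and the ATP synthase factor Atp5s.

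The cells were primary macrophages grown from bone marrow of C57BL/6J mice. They were exposed to lipid A, the lipopolysaccharide anchor that TLR4 recognises, at 100 ng/ml for 12 h, kept without it for 12 h after washing, and exposed again at the same dose for 75 min. Cytosolic RNA was depleted of ribosomal RNA and sequenced in 2 biological replicates, which are the single group of the series. Age and sex were not collected, no cells without lipid A were analysed here, and levels therefore say nothing of a response to it. The replicates have separate sample records but share a donor code, so the spread between them may be technical. They held 64187219 and 49429864 expected counts in replicates 1 and 2. All 7 macrophage markers on a fixed list were detected, with a median of 358 and 538 TPM, and 2 of 4 neutrophil markers (S100a8 and S100a9) lay between 2.21 and 7.31 TPM.

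Respiratory complexes sit in the inner mitochondrial membrane. Complex I takes electrons from NADH, complex II takes them from succinate, complex III passes them to cytochrome c and complex IV passes them to oxygen, while ATP synthase uses the resulting proton gradient to make ATP. Most subunits are encoded in the nucleus, made on cytosolic ribosomes and imported, and a small set is encoded in mitochondrial DNA. In macrophages, signalling through TLR4 is known to alter the use of this pathway relative to glycolysis.

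In length-corrected units, messages of the subunits stood above the median expressed gene and messages of the assembly factors stood below it. Levels are in TPM, a share of all transcripts in a library that is corrected for length. The median of the 71 subunits was 51.1 TPM in replicate 1 and 39.3 TPM in replicate 2, or 45.2 ± 8.34 (SD, n = 2). The 17 assembly factors had medians of 4.44 and 4.22 TPM, and the 8812 protein-coding genes detected in both replicates had medians of 8.03 and 7.32 TPM. Detected means 1 TPM or more in each replicate. In CPM of the expected counts, which are not corrected for length, the subunits had medians of 39.9 and 32.1 and the detected protein-coding genes 32.5 and 31.2, so that most of the gap was not seen on that scale. Within each role, highest and lowest below refer to the mean TPM of the replicates. On the log2(TPM + 0.1) scale the subunit median exceeded the assembly factor median by 3.34 ± 0.22 (SD, n = 2), with 3.50 in replicate 1 and 3.19 in replicate 2. In CPM the difference was 2.07. With 1 group there is no test of this difference, and genes were not used as replicates.

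Of the 99 members, 7 were high, with 100 TPM or more in each replicate. A further 67 were moderate (10 TPM or more), 17 were low (detected but below 10 TPM) and 8 were not detected, so that 91 were detected. All 71 subunits were among the 91, with 7 high, 62 moderate and 2 low. Of the 17 assembly factors 4 were moderate and 13 low. The members together held 1.54% and 1.40% of the TPM of protein-coding genes in replicates 1 and 2, and 0.475% and 0.421% of their expected counts. The level itself depends on the scale: with TPM rescaled to protein-coding genes alone the subunit median was 160.4, and in the table estimated from reads it was 22.9 TPM.

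**Figure D1:**
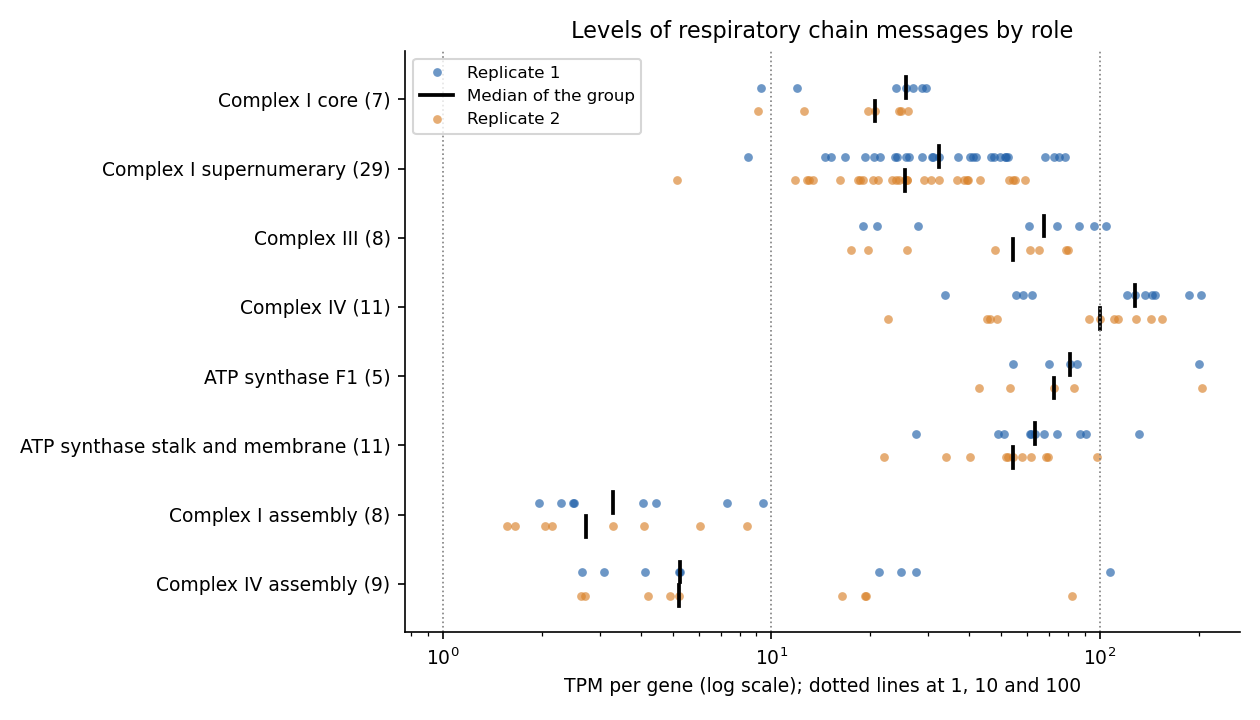
Each point is 1 gene in 1 replicate on a log axis of TPM, grouped by role with the number of genes in brackets, and the black bar is the median of the group in that replicate. Among the groups shown, complex IV has the highest medians (127.9 and 100.25 TPM) and the complex I assembly factors have the lowest (3.29 and 2.72 TPM).

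Complex I messages were the lowest of the subunit groups. Its 36 nuclear-encoded subunits had medians of 29.1 and 24.5 TPM in replicates 1 and 2, with none high. The 7 core subunits, which carry the flavin, the iron-sulfur clusters or the quinone site, had medians of 25.7 and 20.7 TPM. Of these, 5 lay close together and 2 lay apart below. Ndufs7 stood at 29.5 and 24.8 TPM and Ndufs3 at 28.7 and 24.5 TPM. Ndufs1, which holds several of the iron-sulfur clusters, stood at 12.0 and 12.6 TPM. Ndufv1, which binds the flavin that accepts electrons from NADH, was the lowest at 9.30 and 9.13 TPM. The TPM values of Ndufs1 and Ndufv1 did not overlap those of the other 5 core subunits in either replicate. In expected counts, not divided by length, Ndufs1 did not lie apart below. It had 2458 and 2246 counts, against 1788 and 1208 for Ndufs7 and 1600 and 1070 for Ndufs8. Ndufv1 had 1408 and 1111.

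The 29 supernumerary subunits, which surround the core and take no part in electron transfer, had medians of 32.3 and 25.6 TPM and spread over a wider range. The highest were Ndufa1 at 78.2 and 53.0 TPM, Ndufc2 at 72.7 and 59.1 TPM and Ndufa3 at 75.4 and 54.2 TPM. These are small membrane-bound subunits, and the order among the 3 differed between the replicates. The 24 members between these and the lowest by mean TPM ran from 15.2 TPM (Ndufa9) to 68.2 TPM (Ndufb8) in replicate 1 and from 12.8 TPM (Ndufb11) to 55.2 TPM (Ndufb8) in replicate 2, where Ndufb8 exceeded Ndufa1 and Ndufa3. The lowest were Ndufb2 at 14.6 and 11.8 TPM and Ndufb4 at 8.47 and 5.16 TPM. Ndufb4 was the sole supernumerary subunit in the low band. A processed pseudogene named Ndufb4c, a copy of the message inserted back into the genome, which lies outside the member rule, stood above it at 49.99 and 33.6 TPM, with 967 and 507 counts against 703 and 353 for Ndufb4. Of the 31-base words in the leading coding transcript of Ndufb4, 38.3% also occur in transcripts of another gene. The split of reads between Ndufb4 and such copies is thus uncertain. Ndufb1-ps, annotated as a noncoding RNA and therefore no member, stood at 53.8 and 41.5 TPM.

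In TPM, complex III showed a split between small and large subunits. The 8 members had medians of 67.4 and 54.4 TPM. The small subunits Uqcrb, Uqcrh (the hinge protein) and Uqcrq stood at 104 and 78.7, at 95.7 and 80.2, and at 86.3 and 65.4 TPM. Uqcrfs1, the Rieske iron-sulfur protein that hands electrons to cytochrome c1, stood at 21.01 and 19.6 TPM, and the core protein Uqcrc2 at 19.0 and 17.5 TPM. In both replicates the Rieske protein and the core proteins Uqcrc1 (27.9 and 25.8 TPM) and Uqcrc2 lay below the remaining 5 members. The lowest of those 5, Uqcr11, stood at 60.9 and 47.8 TPM. In expected counts, which are not divided by length, this split was not seen. There Uqcrc1 led the 8 members at 4451 and 3371, and Uqcr11 was the lowest at 1553 and 960.

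In TPM, complex IV had the highest medians among the nuclear-encoded groups. In CPM, which is not corrected for length, the F1 subunits of ATP synthase stood higher, at medians of 114.8 and 92.3 against 73.5 and 56.8. Of the 11 ubiquitous subunits of complex IV 6 were high, and the medians were 127.9 and 100.25 TPM. Cox8a stood at 204 and 143 TPM, Cox4i1, the subunit through which ATP is known to regulate the enzyme, at 187 and 155 TPM, and Cox6b1, on the side of the intermembrane space, at 147 and 114 TPM. Cox8a and Cox4i1 changed places between the replicates. Cox6c stood at 144 and 110.1 TPM, Cox7c at 137 and 92.9 TPM and Cox6a1 at 121 and 100.25 TPM. Cox5a, a subunit on the matrix side, held nearly the same level in both replicates, at 127.9 and 129 TPM, while its neighbour Cox5b, which binds zinc, stood at 58.2 and 46.2 TPM. The lowest by mean TPM were Cox7a2 at 55.5 and 48.5 TPM, which in replicate 2 lay above Cox5b and Ndufa4, and Cox7b at 33.8 and 22.6 TPM. Ndufa4, named as a complex I subunit and now assigned to complex IV, stood at 62.1 and 45.2 TPM. The supercomplex factor Cox7a2l, which joins complexes III and IV, stood at 82.6 and 48.8 TPM.

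In TPM, ATP synthase lay between complexes III and IV at its catalytic head. In CPM the medians of the head lay above those of both complexes. The 5 subunits of the F1 head had medians of 81.2 and 72.6 TPM, and the 11 subunits of the stalks and the membrane part had medians of 63.7 and 54.4 TPM. Atp5b, the catalytic beta subunit, was the most abundant member of all by mean level, at 201 and 204 TPM, and ranked 178 among all protein-coding genes. In the read-based table Cox8a had the higher mean, at 87.1 against 86.5 TPM, and the coding transcript of Atp5b held 53.7% and 51.0% of its alignment-based TPM. Atp5a1, the alpha subunit that alternates with beta in the head at equal numbers, stood at 81.2 and 83.7 TPM, and Atp5e, the epsilon subunit, at 85.1 and 72.6 TPM. The lowest of the head were Atp5c1, the rotating gamma subunit, at 70.2 and 53.4 TPM, and Atp5d, the delta subunit, at 54.6 and 42.7 TPM. Among stalk and membrane subunits Atp5l, subunit g, led at 131 and 98.2 TPM, followed by Atp5h, subunit d of the peripheral stalk, at 90.8 and 69.7 TPM, and the small Atp5mpl at 86.9 and 68.7 TPM. The other subunits of the stalks and membrane part apart from the c subunit genes, Atp5k, Atp5j, Atp5f1, Atp5o and Atp5j2, ran from 51.1 TPM (Atp5j2) to 73.9 TPM (Atp5k) in replicate 1 and from 40.3 to 58.0 TPM, for the same genes, in replicate 2. Atp5s, a factor that is no stable subunit, stood at 1.49 and 1.25 TPM.

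The rotor ring of ATP synthase is made of identical copies of subunit c, which 3 genes encode. Atp5g3 stood at 63.7 and 61.6 TPM, Atp5g2 at 49.1 and 34.1 TPM and Atp5g1 at 27.5 and 22.1 TPM, the same order in both replicates. The encoded precursors have 136, 146 and 141 residues for Atp5g1, Atp5g2 and Atp5g3. Their import sequences at the start differ and are cut off in mitochondria. Their last 78 residues are identical, whereas 63 of the 234 bases that encode them differ among the 3 genes. The stretches, from GENCODE M21 transcripts, are shown because they encode the same residues with different bases. They are part of the transcripts that the counts rest on. They read 5′ to 3′, with the 63 positions that differ in capitals.
Atp5g1: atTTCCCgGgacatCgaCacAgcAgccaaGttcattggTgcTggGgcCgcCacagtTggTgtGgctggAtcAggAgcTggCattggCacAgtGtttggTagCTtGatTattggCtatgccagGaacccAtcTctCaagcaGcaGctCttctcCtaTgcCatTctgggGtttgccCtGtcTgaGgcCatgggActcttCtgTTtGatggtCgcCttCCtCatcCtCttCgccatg
Atp5g2: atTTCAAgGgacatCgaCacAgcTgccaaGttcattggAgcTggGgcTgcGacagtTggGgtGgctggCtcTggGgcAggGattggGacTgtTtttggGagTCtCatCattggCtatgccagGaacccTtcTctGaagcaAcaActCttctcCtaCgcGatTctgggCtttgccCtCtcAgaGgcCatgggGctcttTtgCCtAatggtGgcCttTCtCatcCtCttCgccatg
Atp5g3: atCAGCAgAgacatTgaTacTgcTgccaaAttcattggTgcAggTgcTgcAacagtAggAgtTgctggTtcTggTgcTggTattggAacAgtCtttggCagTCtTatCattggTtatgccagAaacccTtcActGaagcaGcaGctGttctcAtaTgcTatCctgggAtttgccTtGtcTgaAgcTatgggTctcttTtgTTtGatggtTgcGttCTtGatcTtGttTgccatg
Atp5g1 and Atp5g2 share 84.6% of these bases, Atp5g1 and Atp5g3 share 78.6%, and Atp5g2 and Atp5g3 share 77.4%. The longest run of identical bases is 20, 11 and 8 in these pairs. None of these runs reaches the 31-base words used for comparing transcripts, so the 3 paralogues can be told apart within this stretch.

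A copy elsewhere in the genome shared far more sequence with Atp5g2 than its paralogues did. Gm10175, a transcribed processed pseudogene at chr7:23946646-23947290 on the minus strand of mm10, has all 234 bases of the Atp5g2 stretch without a difference. It holds 87.7% of the 31-base words of the leading coding transcript of Atp5g2, a gene at chr15:102662864-102672352 on the minus strand. The deposited tables divided the counts between the pair in opposite ways. The alignment-based table gave Atp5g2 2811 and 1575 counts and Gm10175 825 and 507 counts in replicates 1 and 2. The table estimated from reads gave Atp5g2 262 and 247 counts and Gm10175 3505 and 1942 counts. The sum of the pair differed little between the tables, at 3636 and 2082 counts in the first and 3767 and 2189 counts in the second. The place of Atp5g2 in the order of the c subunit genes therefore depends on the table: with read-based values it would be the lowest of the 3.

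**Figure D2:**
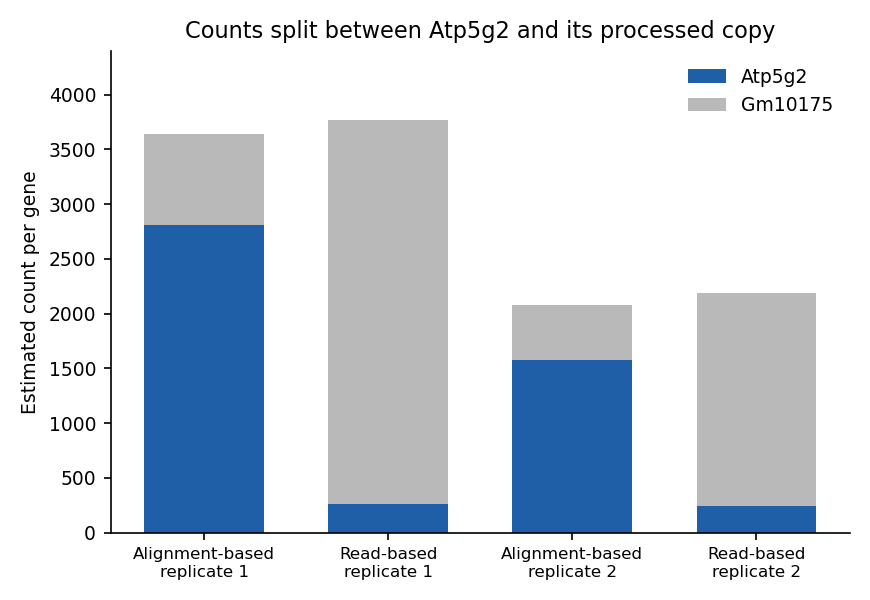
Bars give the estimated count (linear axis) of Atp5g2, in blue, and of its processed copy Gm10175, in grey, stacked for each deposited table and replicate. The stacks of the tables have nearly the same height (3636 and 3767 in replicate 1), while the blue part goes from 2811 to 262 counts.

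Atp5g2 was the single member for which the tables disagreed by at least 2-fold. Of 91 members with at least 10 counts, 88 had read-based counts within a factor of 1.2 of the alignment-based counts in both replicates, with median ratios of 1.06 and 1.09. The others were Ndufaf5, an assembly factor, with ratios of 1.17 and 1.25, and Cox6a2 with 1.64 and 1.57. Of the 98 symbols, 40 share no 31-base word with a transcript of another gene, and the median shared part is 1.45%. Besides the second entry of Atp5o, 9 members share at least 50%: Atp5g2, Atp5l, Atp5g1, Cox16, Atp5h, Ndufa12, Cox7c, Cox17 and Uqcrb. For these members apart from Atp5g2, the gene sharing the most words held few counts in replicate 1. The counts ran from 0 for Gm21987 (Cox17) to 130 for Gm20498 (Cox16). Gm21987 and Gm20498 are annotated as protein-coding genes that overlap Cox17 and Cox16, and are not copies elsewhere in the genome.

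The tissue-restricted forms of complex IV subunits were at or near 0, with Cox6a2 the only one detected. In mice these forms replace ubiquitous ones in striated muscle (Cox6a2, Cox7a1 and Cox8b), in lung or under low oxygen (Cox4i2, Ndufa4l2) or in testis (Cox6b2, Cox7b2, Cox8c). Cox4i2, Cox7b2, Cox8b, Cox8c and Ndufa4l2 had no count in either replicate. For Cox4i2 a limit of 3 counts, which covers counting error only, allows at most 0.0525 and 0.0651 TPM. Cox4i1 was accordingly at least 3554-fold and 2377-fold higher than Cox4i2 in TPM in replicates 1 and 2, against that floor per library. Against the same floor, Ndufa4 was at least 1276-fold and 750.03-fold higher than Ndufa4l2, and Cox7b at least 406-fold and 217-fold higher than Cox7b2. Cox8a was at least 1099-fold and 597-fold higher than Cox8b and at least 1819-fold and 1007-fold higher than Cox8c. Cox6b2 had 1 count in replicate 1 and none in replicate 2.

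The muscle forms Cox6a2 and Cox7a1 did carry counts. Cox6a2 had 167 and 69 counts, or 3.24 and 1.66 TPM, and Cox6a1 was 37.3-fold and 60.4-fold higher in TPM. Cox7a1 had 38 and 6 counts, or 1.93 and 0.390 TPM, and Cox7a2 was 28.8-fold and 124-fold higher. Both were lower in replicate 2. Cox6a2 overlaps Itgad, an integrin gene, on the opposite strand, and since strandedness is not known, reads of Itgad may be counted under it. None of 7 striated muscle markers was detected, the highest being Tnnt3 at 0.070 TPM in replicate 1, and Acta1, Actc1 and Myh7 had none. Of 4 testis markers none was detected, the highest being Ddx4 at 0.400 TPM, with Tnp1 and Prm2 at 0.

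**Figure D3:**
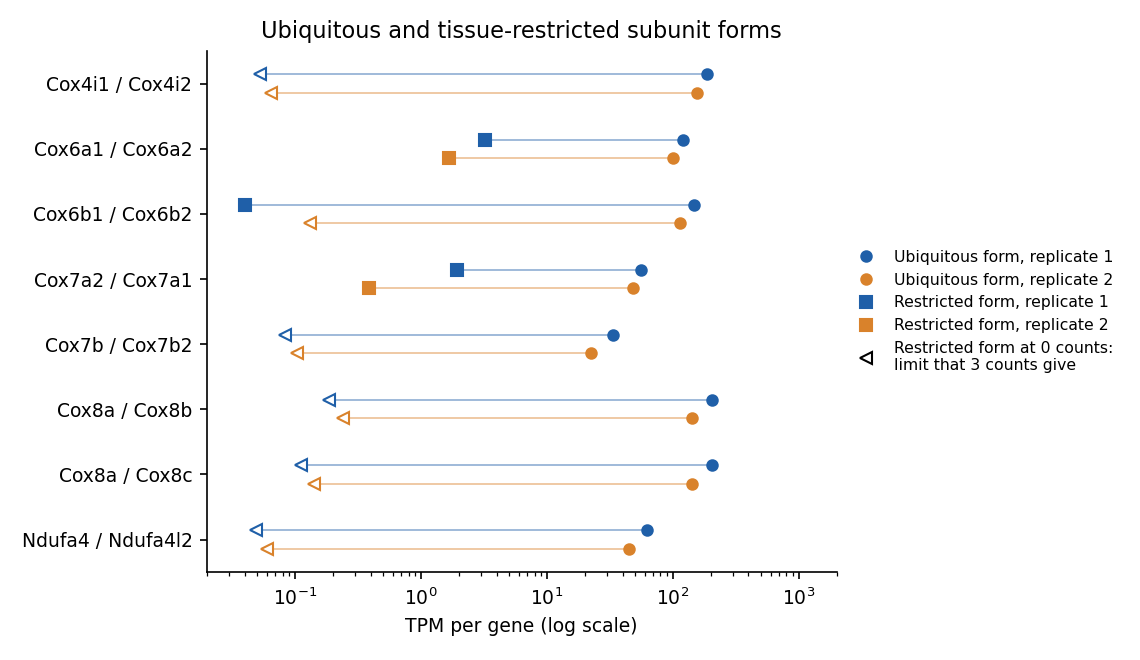
Each row is a pair of a ubiquitous subunit form (circles) and a restricted form (squares, or open triangles at the limit that 3 counts give where there was no count) on a log axis of TPM, in blue for replicate 1 and orange for replicate 2. Only Cox6a2 and, in replicate 1, Cox7a1 reach 1 TPM among the restricted forms; the square of Cox6b2 stands for 1 count.

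Assembly factors, which insert cofactors and join modules but are not part of the finished enzymes, were mostly low. The 8 of complex I had medians of 3.29 and 2.72 TPM. By mean TPM Ndufaf8, Ndufaf3 and Ndufaf1 led at 9.42 and 8.42, at 7.32 and 6.06, and at 4.07 and 4.08 TPM. Ndufaf2 stood above Ndufaf1 in replicate 1, at 4.44 TPM, and below it in replicate 2, at 3.29 TPM, while Ndufaf7 and Ndufaf4 were the lowest by mean at 2.51 and 1.66 and at 1.96 and 1.57 TPM. The 9 of complex IV had medians of 5.27 and 5.22 TPM and fell into separate levels. Cox17, a copper chaperone, stood at 107 and 82.3 TPM, within the range of complex IV subunits. Cox16 and Cox14 stood at 27.6 and 19.5 and at 24.9 and 19.3 TPM. Cox20, which escorts subunit 2, stood at 21.3 and 16.4 TPM, below which came Cox15, Cox19 and Cox18 between 4.11 and 5.27 TPM. Cox10 and Cox11, which act in heme A synthesis and copper insertion, stood at 3.08 and 2.70 and at 2.64 and 2.63 TPM. Without Cox17, a setting chosen after its values were seen, the subunit median exceeded the assembly factor median by 3.38 on the log2(TPM + 0.1) scale.

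Genes of the pathway outside the symbol rule spanned a similar range. The 4 subunits of complex II, Sdhb, Sdhd, Sdha and Sdhc, had a median of 41.2 and 35.9 TPM, with Sdhb, the iron-sulfur subunit, at 63.8 and 62.5 TPM. Cycs, the electron carrier cytochrome c, stood at 17.1 and 14.1 TPM and Cyc1, cytochrome c1 of complex III, at 14.5 and 15.4 TPM. The testis form Cyct was not detected, at 0.020 and 0 TPM. Of 32 assembly factors named otherwise, 7 were moderate, 20 low and 5 not detected, with medians of 4.85 and 4.36 TPM. Coa5, Uqcc2 and Surf1 led them at 53.6 and 49.1, at 28.98 and 22.1, and at 25.5 and 20.1 TPM, and Pet117 was listed at 0 in both replicates. In TPM, Coa5 lay above Sdhd, Sdha and Sdhc, and Cycs and Cyc1 lay below Coa5, Uqcc2 and Surf1 in both replicates. In expected counts, not divided by length, Cycs (5511 and 3679) exceeded Uqcc2 (910 and 551) and Surf1 (2360 and 1489). Cyc1, with 2015 and 1755 counts, exceeded Uqcc2 in both replicates and Surf1 in replicate 2. Coa5 stayed above all of these at 21893 and 16423 counts.

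Not every read of these genes came from a coding transcript as the tables assign them. Over the 91 detected members the coding transcripts held a median of 99.6% and 99.3% of a gene's TPM in replicates 1 and 2. In 64 members they held at least 90% in both replicates, and in 7 they held under 50% in both. For 8 members the most abundant transcript was of a type that is not protein-coding. The same counts were not made over all detected genes, so they do not set the members apart. In Ndufa5, a subunit of the peripheral arm, the processed transcript Ndufa5-204 held 70.97% and 61.3% of TPM. In Atp5j, coupling factor 6 of the peripheral stalk, the intron-retaining Atp5j-208 held 67.8% and 65.1%. In Atp5f1, subunit b of the same stalk, Atp5f1-203, annotated as a target of nonsense-mediated decay, held 60.4% and 51.5%. The others were Ndufs4-202 (42.7% and 60.5%), also annotated for decay, the intron-retaining Ndufc1-203 (50.1% and 46.9%) and Ndufab1-205 (38.1% and 39.4%), and noncoding processed transcripts of Cox19 (61.4% and 70.8%) and Cox16 (42.8% and 45.3%).

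These shares depended on the unit. By expected counts, which are not divided by length, 2 of the 7 stayed under 50% coding in both replicates: Ndufa5 at 31.2% and 29.1%, and Atp5j at 46.6% and 49.1%. Atp5b had 53.7% and 51.0% of its TPM but 88.3% and 87.9% of its counts on its single coding transcript, Atp5b-201. Its TPM as a gene therefore includes short transcripts that hold few counts. Strandedness is not given in the sources used here. Of the 98 symbols, 36 overlap another annotated gene on the opposite strand, among them Atp5j and Gabpa, so that reads of such pairs may be shared. Such overlaps were not counted over all genes.

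**Figure D4:**
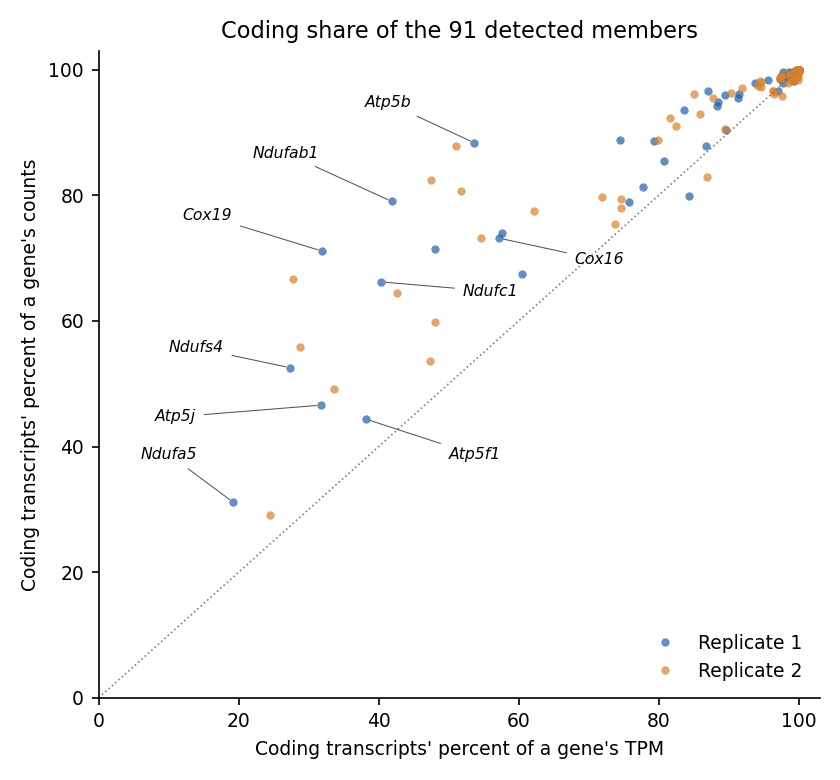
Each point is a detected member in 1 replicate, with the percent of its TPM (horizontal axis) and of its expected counts (vertical axis) on protein-coding transcripts, and the dotted line marks equal values. Most points lie at the upper right, while the named genes lie above the line, with Atp5b at 53.7% of TPM and 88.3% of counts in replicate 1.

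In TPM, which divides counts by length, short messages stood higher within the set. The divisor is an effective length, which falls faster than transcript length in short messages. In replicate 1, 3 counts would give 0.186 TPM for Cox8b (360 bases) and 0.0525 TPM for Cox4i2 (733 bases). Across the 71 subunits transcript length and mean TPM had a Spearman correlation of -0.52, and across the 8812 detected protein-coding genes it was -0.19. These are descriptions across genes that share the same libraries and are not independent. In expected counts the long Atp5b and Atp5a1 (leading coding transcripts of 1916 and 2471 bases) had the most, at 23236 and 20459 in replicate 1. The short Atp5k (371 bases) had 1282. No correlation of length with counts was computed. The 26 subunits under 600 bases had a median of 65.2 TPM, the 30 from 600 to under 1000 bases one of 37.6 TPM and the 15 longer ones one of 23.4 TPM, all as medians of the replicate means.

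Subunit messages were lower in replicate 2 than in replicate 1, by a small amount that genes of the same length shared. In TPM, 67 of 71 subunits were lower in replicate 2, beside 6043 of 8812 detected protein-coding genes. In TMM-scaled counts the log2 ratio of replicate 2 over replicate 1 had a median of -0.28 over the subunits and -0.04 over all genes tested. By length the median log2 ratio of TPM was -0.38 for subunits under 600 bases, -0.34 from 600 to under 1000 bases and -0.12 above that. Detected protein-coding genes had -0.47, -0.40 and -0.12 in the same classes, so the subunits did not stand below other genes of their length.

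**Figure D5:**
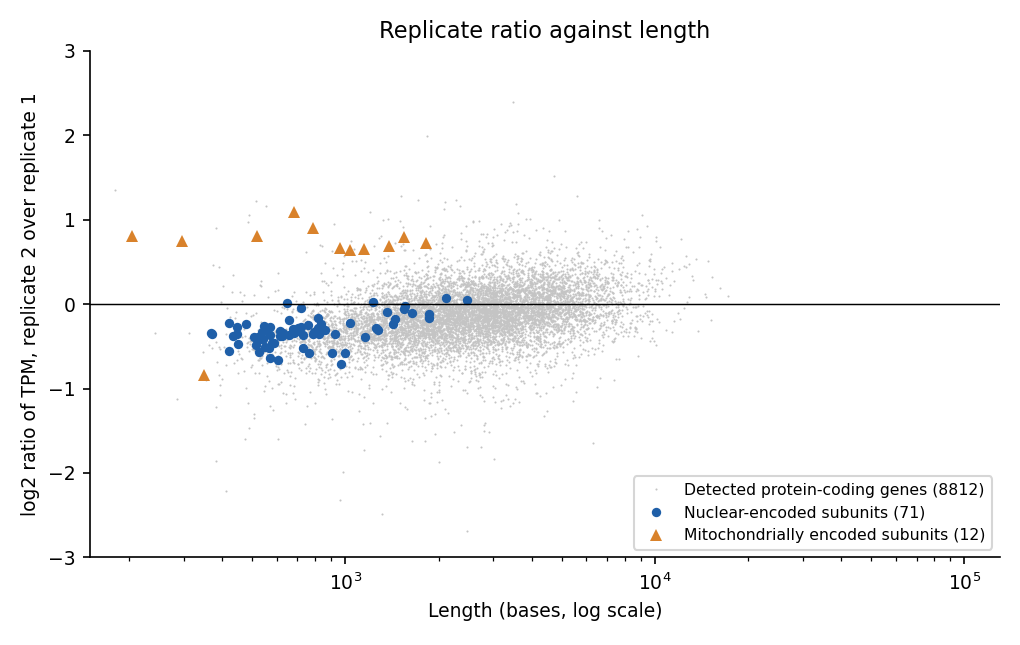
Points give the log2 ratio of TPM in replicate 2 over replicate 1 (vertical axis) against length in bases (log axis) for detected protein-coding genes in grey, nuclear-encoded subunits in blue and mitochondrially encoded subunits, without mt-Co2, as orange triangles. Blue points lie mostly below 0 among the grey points of the same length, and 11 of 12 triangles lie above 0.

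The test between the replicates compares these libraries and not conditions, and its p covers counting error alone. A two-sided exact binomial test with Benjamini-Hochberg adjustment and a fold of at least 2 called 5.45% of 13298 genes, 2.46% as lower in replicate 2. Of 92 members tested it called 1, Cox7a1, lower in replicate 2 with a log2 ratio of -2.19 (exact binomial adjusted p = 0.000125). When edgeR's exact test was given a coefficient of variation of 0.2, Cox7a1 was not called (adjusted p = 0.104). With no minimum fold the binomial test put 67 of the 92 members lower in replicate 2, beside 31.1% of all genes. The 31.1% was not matched for length. In TPM, without a test, 156 of 180 detected protein-coding genes under 600 bases were lower in replicate 2. From 600 to under 1000 bases 604 of 655 were lower. With the coefficient at 0.1, edgeR's exact test put 3 of 92 lower, beside 3.82% of all genes, which is close to that background. At 0.2 it put 0 of 92 lower, beside 0.361%, and 1 member had an unadjusted p of at most 0.05.

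The 13 subunits encoded in mitochondrial DNA went the other way. Their median was 86.7 TPM in replicate 1 and 142.5 TPM in replicate 2, and 12 of 13 were higher in replicate 2, with mt-Nd3 the exception at 52.3 and 29.3 TPM. With read-based values mt-Nd3 turned, at 18.8 and 27.3 TPM. Together they held 0.575% and 1.10% of the TPM of protein-coding genes, while the nuclear-encoded members held 1.54% and 1.40%. The highest by alignment-based TPM were mt-Atp8 at 597 and 1043 TPM, mt-Co1 at 410 and 709 TPM and mt-Nd1 at 112 and 178 TPM. The short mt-Atp8 (204 bases) rested on 1525 and 2047 counts, against 60882 and 86004 for mt-Co1. With read-based values mt-Atp8, at 163 and 185 TPM, lay below mt-Co1, at 241 and 316 TPM. There mt-Nd1 stood at 63.2 and 74.5 TPM. The lowest by mean TPM were mt-Atp6 at 16.6 and 35.3 TPM and mt-Co2, listed at 0 in replicate 1 and at 5.10 TPM in replicate 2. In the read-based table mt-Atp6 stood far higher, at 135 and 146 TPM, above mt-Nd1, and mt-Co2 had 305 and 2506 counts. The levels of both, and the order of the highest, thus depend on the table. The ratio of messages from the 2 genomes thus differed between the replicates, and whether the amount of mitochondria in the cytosolic fraction moved with it was not tested.

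Promoter windows of the members held the motif of NRF1 more often than those of other genes. NRF1 and GABP are the factors best known for control of nuclear respiratory genes, and YY1 is another. RefSeq windows on GRCm38.p6, from 250 bases before to 50 after each start, were matched for 78 of the 98 symbols and searched on both strands for exact letters. The NRF1 core GCGCATGC occurred in 11 of 78 members (14.1%), in 6.84% of 7046 detected protein-coding genes and in 3.05% of 27025 genes. The ETS core CCGGAAG, which GABP binds, occurred in 21 members (26.9%), against 23.7% and 9.93%. ATGGCGG, of YY1, occurred in 14 members (17.9%), against 11.2% and 4.69%. These letters begin with the start codon ATG, and whether some matches are starts of coding sequence was not tested. The excess of the ETS core over all genes was thus mostly shared by detected genes. TATAAA occurred in 8 members (10.3%), against 8.36% and 15.7%, and CCAAT in 33 (42.3%), against 42.9% and 41.1%. The median GC content was 58% in member windows, 61% in windows of detected genes and 52.7% in all windows. No test was run on these shares, and a match is not a binding site.

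As an example, the window before the start of Atp5l, the most abundant of the stalk and membrane group, is shown beside that of Cox7a1, a muscle form. Both are from RefSeq on GRCm38.p6, read 5′ to 3′ on the strand of the gene, at chr9:44920743-44920992 on the minus strand and chr7:30183921-30184140 on the plus strand. The 30 bases nearest the start of Cox7a1 are not printed, so that 220 of its 250 upstream bases are shown. Capitals mark matches of the NRF1 core and the ETS core, on either strand.
Atp5l: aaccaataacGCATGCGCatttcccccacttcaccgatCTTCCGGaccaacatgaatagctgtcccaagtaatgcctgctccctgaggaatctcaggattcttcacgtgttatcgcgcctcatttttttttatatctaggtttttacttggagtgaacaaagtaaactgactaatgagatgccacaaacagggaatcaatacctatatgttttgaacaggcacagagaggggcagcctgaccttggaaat
Cox7a1: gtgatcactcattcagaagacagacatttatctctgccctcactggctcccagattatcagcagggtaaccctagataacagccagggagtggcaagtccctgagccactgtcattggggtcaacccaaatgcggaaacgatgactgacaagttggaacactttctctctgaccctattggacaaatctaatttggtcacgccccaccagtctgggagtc
Atp5l has both motifs, in the reverse orientation, and Cox7a1 has neither in its window. Of the 78 matched members only Atp5k, Atp5l, Cox6a1 and Uqcr11 have both cores, so Atp5l is not typical of the set. The abundant Atp5b and Cox8a lack the NRF1 core. The windows shown do not relate motifs to level, which was not tested. Members with and without the NRF1 core had medians of 39.1 and 27.2 TPM. For the ETS core the medians were 28.9 and 27.5 TPM, and for the YY1 letters 24.2 and 27.9 TPM.

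The factors themselves were at modest levels. Of 10 regulator genes on a fixed list 1 was moderate, 7 were low and 2 not detected, with medians of 5.31 and 5.08 TPM. The highest were Hif1a, the oxygen-sensitive factor, at 11.9 and 11.7 TPM, Esrra, a nuclear receptor, at 8.12 and 9.07 TPM, and Gabpb1, a GABP subunit, at 8.06 and 6.05 TPM. Nrf1 stood at 3.88 and 3.56 TPM and Gabpa, the DNA-binding subunit of GABP, at 7.76 and 5.77 TPM. Ppargc1a, the coactivator known for raising mitochondrial gene expression in muscle and brown fat, was the lowest at 0.010 and 0 TPM, and Ppargc1b stood at 0.980 and 1.19 TPM.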

How the data were processed

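Total RNA of the cytosolic fraction was measured in 2 libraries of 1 group. The authors deposited, for each library, gene and transcript tables based on alignments to the transcriptome, plus a transcript table based on the reads alone; the text deposited beside them names mm10 and GENCODE M21. The sources used here name no aligner or quantifier and do not say whether the libraries were stranded. The deposited expected counts are, per the file headers, estimates per gene or transcript with no correction for depth. The deposited TPM values are corrected for effective length and scaled over all features of a table, so that abundant short noncoding RNAs lower the TPM of every message. The percent values that the authors deposited state how much of the TPM of a gene falls on a given transcript.

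Members, roles and lists were chosen with earlier results of these data known. Values named are the 3 highest and 2 lowest of each role, the tissue forms and their counterparts, the c subunit genes, members called between replicates, members differing by at least 2-fold between tables, members whose main transcript is not protein-coding, and extremes of the other lists; part of what this rule allows is not reported here. Markers of macrophages, striated muscle, testis, lymphocytes, neutrophils and stroma were read as lists; of the 4 lymphocyte and the 4 stroma markers none was detected. Read-based values were summed per gene.

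Expected counts were rounded. TMM scaling of library sizes was done in edgeR 4.0.16 (R 4.3.3), with DESeq2 1.42.0 size factors as an alternative. Genes with a mean count of at least 10 were compared between the replicates by an exact binomial test, calling those at least 2-fold apart with a Benjamini-Hochberg adjusted p of at most 0.05; spike-ins and transfer RNAs did not enter. The tests were also run on simulated counts with known changes, drawn with counting noise alone or with a coefficient of variation of 0.2. That outcome is not reported here, and it does not show how the tests behave on these libraries. Since the binomial test covers counting error alone, edgeR's exact test was run beside it with assumed coefficients of variation of 0.1 and 0.2. Over the 13298 genes tested the libraries differed beyond counting noise (chi-square per degree of freedom of 147). Shared sequence was counted as 31-base words of the leading coding transcript found in transcripts of other genes. Sequence work used Python 3.11.15, pandas 2.3.3, NumPy 2.4.6 and Biopython 1.88. Protein sequences and a genome were not used here.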

Additional observations from a re-analysis of the deposited data

How the results depend on the processing

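Results rest on 2 libraries of 1 group, and their level depends on the scale. The subunit median of 45.2 TPM became 160.4 when TPM was rescaled to protein-coding genes and 22.9 in the read-based table, and ranged from 39.3 to 51.1 with either replicate left out. The log2 difference between subunits and assembly factors, 3.34, became 3.10 with a pseudocount of 1 and 2.07 in CPM, and ranged from 3.19 to 3.50 with either replicate left out. The members' share of protein-coding TPM, 1.47%, became 0.448% as a share of counts and ranged from 1.40% to 1.54% over the replicates. The number of detected members, 91, was 79 at a TPM of 5 and 87 in the read-based table, and ranged from 91 to 92 with either replicate left out. The number of members called between the replicates, 1, became 0 with an assumed coefficient of variation of 0.2 in edgeR's exact test (1 at an unadjusted p of at most 0.05) and 2, Cox6a2 and Cox7a1, in the read-based table. The median log2 ratio over subunits, -0.28, lay between -0.34 and -0.27 under the other scalings and in the read-based table. The TPM of 90 of 98 members moved by more than 1 SD in the read-based table, in which detected members stood at a median of 0.578 and 0.425 times their alignment-based TPM in replicates 1 and 2. The cause of these changes was not tested beyond what each setting changes by construction. No paired analysis was possible because the series has 1 group.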

Other observations

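Some respiratory messages with known partners in a complex stood at unequal levels. Atp5b and Atp5a1 encode the beta and alpha subunits that occur in equal numbers in ATP synthase, and in TPM they stood at 201 and 81.2 in replicate 1 and at 204 and 83.7 in replicate 2. In expected counts they stood close together, at 23236 and 20459 in replicate 1 and at 18446 and 17268 in replicate 2, and 88.3% and 87.9% of the counts of Atp5b lay on its coding transcript. The coding transcript held 53.7% and 51.0% of the TPM of Atp5b. Members of other sets with known roles in the same pathway were Tfam, which packages mitochondrial DNA, at 4.58 and 3.24 TPM, Pprc1, a coactivator, at 3.07 and 4.60 TPM and Yy1 at 6.04 and 5.55 TPM. Among assembly factors outside the symbol rule, Sco1 and Sco2, which deliver copper to complex IV, stood at 8.46 and 9.59 and at 1.59 and 1.25 TPM, and Bcs1l, which installs the Rieske protein, at 1.99 and 1.61 TPM.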
